A study of Mus musculus with 17 samples.

Results

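The genes described here encode the motor and scaffold proteins of motile cilia: the axonemal dynein heavy chains (Dnah), the axonemal dynein intermediate chains (Dnaic) and light-intermediate chain (Dnali1), the radial spoke proteins (Rsph) and the cilia- and flagella-associated proteins (Cfap). They were chosen by symbol alone, and 52 of the 53090 gene entries of each count table carried such a symbol: 26 Cfap, 15 Dnah, 8 Rsph and 2 Dnaic genes and Dnali1. They were followed across 12 mouse RNA-seq libraries of 4 groups. YMdIDR (3 libraries) expressed a construct named YAP-MΔIDR, and its labels name both brain tumour tissue and neural progenitor cells made from embryonic stem (ES) cells. YAP-M (4 libraries) was brain tumour tissue grown after plasmids encoding YAP-M were electroporated into the brains of embryos in utero. NSC-YAP (2 libraries) was ES-derived neural progenitor cells that overexpressed YAP, a transcriptional coactivator of the Hippo pathway. SVZ (3 libraries) was wild-type, although its tissue label reads brain tumour, and it served as the unmodified group. The labels give no strain, age or sex, and do not say whether the libraries of a group came from separate animals or cultures, so p-values measure the spread between these libraries. The constructs' promoter is not given in the labels. The other 5 samples of the series measure protein binding to DNA and were not analysed here.

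A motile cilium is built around the axoneme, a cylinder of microtubule doublets around a central pair. Dynein arms on each doublet walk along its neighbour and bend the cilium: outer arms set the beat frequency and inner arms shape the stroke. Radial spokes reach from the doublets to the central pair and pass on signals that regulate the arms, and many Cfap proteins sit in the doublet wall, the central pair or the bases of arms and spokes. In the brain, motile cilia are carried in tufts by the ependymal cells that line the ventricles, and the transcription factors Foxj1 and the Rfx family switch on their genes. Ependymomas, the tumours this study concerns, resemble ependymal cells.

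The libraries held 20784130 to 25463303 counts, and levels are given as CPM, the count of a gene scaled to its library's total after TMM correction, so that 3 counts in a library equal 0.11 to 0.147 CPM. Markers were read against the labels. A list of 10 neural stem and radial glia genes summed to 2790, 3920 and 3290 CPM in YMdIDR, 1740 to 2380 CPM in YAP-M, 4350 and 4110 CPM in NSC-YAP and 322 to 354 CPM in SVZ, so that YMdIDR lay between YAP-M and NSC-YAP. A list of 11 macrophage and microglia genes summed to 2800 to 3510 CPM in YMdIDR and 2240 to 3320 CPM in YAP-M, but to 42.6 and 44.7 CPM in NSC-YAP and 438 to 577 CPM in SVZ. On the macrophage list YMdIDR lay near YAP-M and far above NSC-YAP, and which of its labelled materials it was is not settled here. SVZ stood apart with its oligodendrocyte list (10 genes), which summed to 29000 to 34800 CPM, against 370 to 1330 CPM in YMdIDR, 716 to 3420 CPM in YAP-M and 2280 to 2390 CPM in NSC-YAP. In such mixed samples, fewer ciliated cells and less RNA per ciliated cell cannot be told apart.

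Most of the 52 genes were low transcripts, and SVZ was the group in which most of them could be seen. At least 1 CPM was reached by 37, 17 and 18 of them in the YMdIDR libraries, by 33, 27, 35 and 34 in YAP-M, by 20 in both NSC-YAP libraries and by 46 in each SVZ library. The median member stood at 0.508 to 1.65 CPM in YMdIDR, 1.09 to 2.09 CPM in YAP-M, 0.489 to 0.509 CPM in NSC-YAP and 3.96 to 5.75 CPM in SVZ. Scaled by exon length, the first 3 in every group were Cfap36, which binds the ciliary GTPase Arl3, and the spoke genes Rsph3a and Rsph3b, with Cfap20, a protein of the junction between the doublet's tubules, in place 4 or 5. Cfap36 had a mean of 12 CPM per kilobase in YMdIDR, 21.4 in YAP-M, 12.4 in NSC-YAP and 33.3 in SVZ. Rsph3a and Rsph3b are closely related copies on chromosome 17, so reads may be shared between them and their separate values are uncertain. In NSC-YAP places 5 and 6 went to Dnaic2, at 4.38 CPM per kilobase, and Cfap100, at 4.24, which stood at 1.11 and 1.05 CPM per kilobase in SVZ. Of the 52 genes, 22 overlap another gene that reaches 1 CPM in a library, 19 of them on the opposite strand, and some of these partners are given beside the results they touch.

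**Figure D1:**
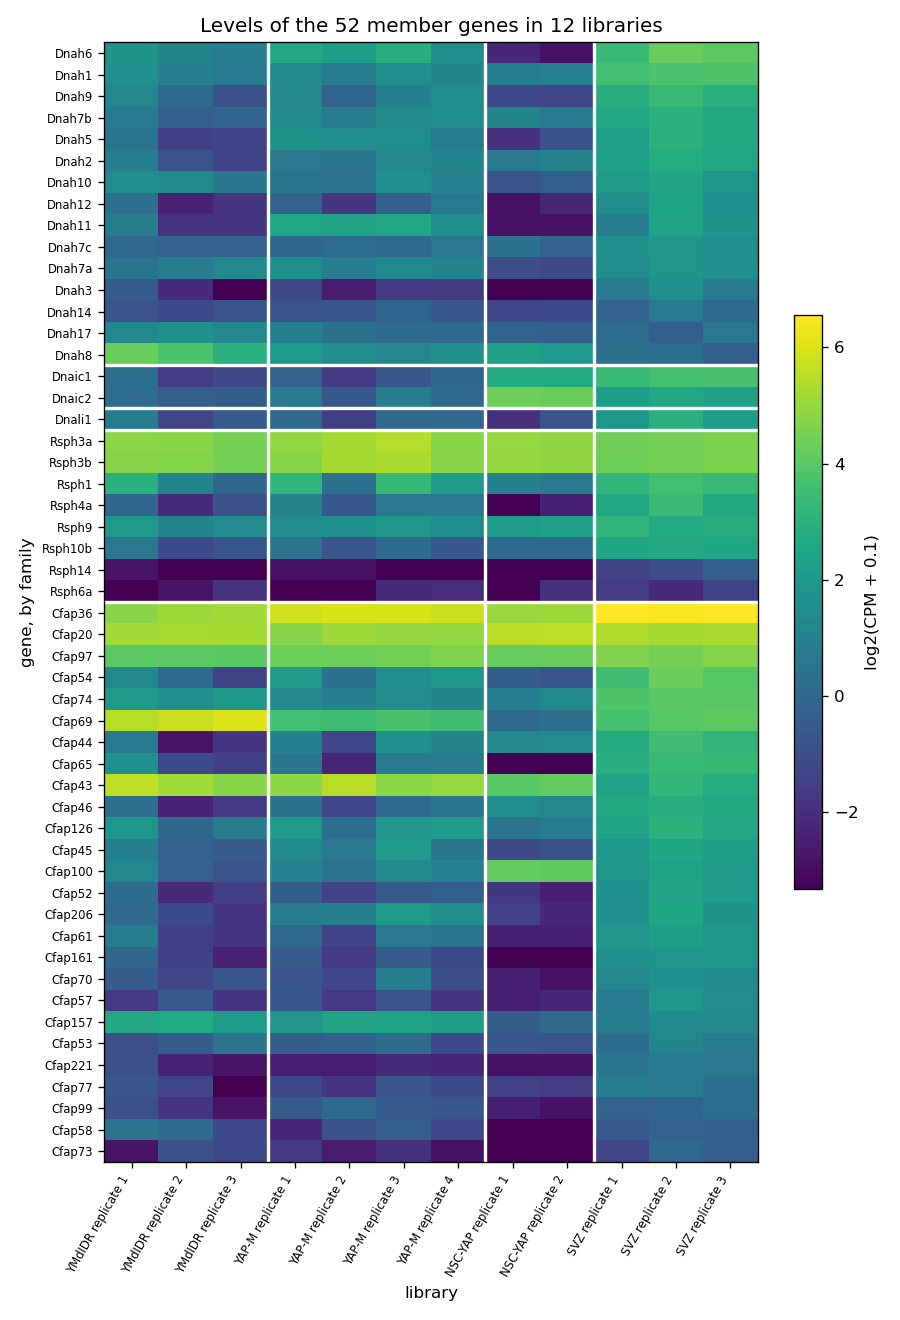
Levels of the 52 genes (rows, by family and then by SVZ mean) in the 12 libraries (columns, by group), as log2(CPM + 0.1). Most rows are brightest in the 3 SVZ libraries and darkest in the 2 NSC-YAP libraries, while Dnaic2 and Cfap100 are brightest in NSC-YAP and Dnah8 and Cfap69 in YMdIDR.

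Promoters are shown because Rfx factors, which bind the X-box, are established activators of motile cilia genes. RefSeq promoters (build GRCm38.p6, 250 bases before to 50 after the gene's start) were matched by symbol for 42 of the 52 genes. An X-box, searched on both strands as GTNNCC, 3 bases of any kind and GNAAC, stood in 5 of the 42 (11.9%), against 673 of 27025 genes of the same table (2.49%). The shorter half-site GTTGCC, which can lie within an X-box, stood in 13 of the 42 (31.0%), against 14.1% of that table's genes, and the forkhead core TGTTTAC in 3 of the 42 (7.14%), against 4.05%. The X-box genes were Cfap45, Cfap61, Cfap206, Cfap44 and Dnah17. In the first 4 of these the match began 8 to 27 bases before the start, and in Dnah17 it began 159 bases before it. Below, those 4 promoters are written 5′ to 3′ on the gene's strand with the X-box in capitals. Cfap45 (chr1:172520880-172521179, + strand) is a doublet wall protein, Cfap61 (chr2:145934534-145934833, + strand) and Cfap206 (chr4:34730157-34730456, - strand) belong to the base of the radial spokes, and Cfap44 (chr16:44394549-44394848, + strand) tethers an inner arm motor.
Cfap45: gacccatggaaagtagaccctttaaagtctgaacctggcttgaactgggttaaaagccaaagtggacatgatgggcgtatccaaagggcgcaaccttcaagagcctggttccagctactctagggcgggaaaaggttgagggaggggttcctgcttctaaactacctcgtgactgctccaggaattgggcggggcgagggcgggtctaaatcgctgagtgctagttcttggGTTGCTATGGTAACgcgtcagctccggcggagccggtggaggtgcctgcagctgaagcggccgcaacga
Cfap61: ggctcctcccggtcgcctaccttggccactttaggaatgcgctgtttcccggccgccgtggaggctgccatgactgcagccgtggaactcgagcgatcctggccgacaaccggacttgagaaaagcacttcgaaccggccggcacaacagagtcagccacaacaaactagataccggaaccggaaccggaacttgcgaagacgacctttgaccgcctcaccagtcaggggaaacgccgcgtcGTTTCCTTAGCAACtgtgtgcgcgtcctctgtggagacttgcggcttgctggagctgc
Cfap206: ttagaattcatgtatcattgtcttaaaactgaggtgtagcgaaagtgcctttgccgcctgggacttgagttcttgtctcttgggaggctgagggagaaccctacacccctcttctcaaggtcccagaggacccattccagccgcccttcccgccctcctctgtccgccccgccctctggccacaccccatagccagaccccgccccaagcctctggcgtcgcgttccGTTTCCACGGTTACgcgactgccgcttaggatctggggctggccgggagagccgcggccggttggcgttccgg
Cfap44: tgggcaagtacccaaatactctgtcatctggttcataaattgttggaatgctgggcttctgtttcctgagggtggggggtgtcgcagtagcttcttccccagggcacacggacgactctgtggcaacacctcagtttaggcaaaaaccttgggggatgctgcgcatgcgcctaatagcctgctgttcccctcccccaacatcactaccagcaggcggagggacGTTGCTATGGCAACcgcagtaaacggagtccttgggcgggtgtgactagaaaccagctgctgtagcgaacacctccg
These 4 genes averaged 1.07, 0.719, 0.507 and 0.615 CPM in YMdIDR, in the order printed, 2.32, 0.989, 2.59 and 1.82 CPM in YAP-M, 0.408, 0.0815, 0.204 and 2.53 CPM in NSC-YAP and 4.6, 3.84, 3.95 and 8.96 CPM in SVZ. A match of letters is a description of the promoter and not a measured binding site.

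In each comparison of a construct group with SVZ, most of the axonemal genes that could be tested were lower, while a few were higher. NSC-YAP was ES-derived cells, whereas SVZ and YAP-M carry a tissue label. Where NSC-YAP is compared with either of them, construct and material cannot be told apart. Genes that reached 1 CPM in 2 or more libraries were compared by edgeR's quasi-likelihood test, and a gene was called when its Benjamini-Hochberg adjusted p over 18329 genes was under 0.05 and its log2 fold change at least 1 in size. Of the 52 genes, 46 were tested. The 6 others were 3 Cfap, 2 Rsph and 1 Dnah gene. Of the 46, 7 passed the minimum only through the SVZ libraries and so had to be high there: Cfap52, Cfap57, Cfap70, Cfap77, Cfap161, Cfap221 and Dnah3.

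In YMdIDR 5 of the 46 were called higher and 33 lower than in SVZ, with a median log2 fold change of -2.38; over all genes tested 26.9% were called higher and 29.6% lower, with a median of 0.0. In YAP-M 3 were higher and 30 lower (median -1.55), beside 25.8% and 28.9% of all genes (median -0.04). In NSC-YAP 4 were higher and 33 lower (median -2.68), beside 17.5% and 27.6% of all genes (median -0.1). The 3 comparisons share the SVZ libraries and are not independent. All 7 genes that passed only through SVZ were among those called lower in each comparison. Of the 39 others, 5 were higher and 26 lower in YMdIDR (median -2.11), 3 higher and 23 lower in YAP-M (median -1.28), and 4 higher and 26 lower in NSC-YAP (median -2.11). With quantile normalization the median of the 46 in NSC-YAP was -1.35, beside 0.25 over all genes, and 25 were lower, beside 19.9% of all genes. Of the genes called there with TMM, 8 were then not called: Cfap53, Cfap77, Cfap126, Cfap157, Dnah2, Dnah7b, Dnah7c and Rsph1. With no minimum, where all 52 genes entered, the numbers called lower were 36 in YMdIDR, 32 in YAP-M and 38 in NSC-YAP. Of all 38279 genes then tested, 18%, 17.6% and 16.5% were lower in the same groups. With a minimum of 5 CPM only 27 of the genes were tested, and 18, 15 and 15 of them were lower. Of all 14554 genes then tested, 27%, 26% and 25% were lower in the same groups. With the adjusted p alone, 5 were higher in YAP-M, beside 38.0% of all genes. Markers of ependymal cells moved in the same direction: of the 11 tested genes of a 12-gene list, 10 were lower in YMdIDR, 8 in YAP-M and 9 in NSC-YAP, and none was higher. That list summed to 24.6 to 52.2 CPM in YMdIDR, 30.9 to 77.4 CPM in YAP-M, 42.6 to 44.4 CPM in NSC-YAP and 106 to 125 CPM in SVZ. Foxj1 alone made up 37.3 and 37.6 CPM of the NSC-YAP sums, while the ependymal genes Tmem212, Pifo and Sntn were at 0 in both NSC-YAP libraries. Markers of the choroid plexus, another ciliated epithelium of the ventricles, summed over 10 genes to 96.1 to 841 CPM in YMdIDR, 154 to 489 CPM in YAP-M, 1.51 to 1.67 CPM in NSC-YAP and 1010 to 2510 CPM in SVZ; 7, 5 and 10 of the 10 were lower than in SVZ in YMdIDR, YAP-M and NSC-YAP, and 1, 1 and 0 higher. Sulf1, of the choroid plexus list, averaged 91.3, 125, 0.244 and 33.7 CPM in YMdIDR, YAP-M, NSC-YAP and SVZ, and so weighs on the sums of YMdIDR and YAP-M. The part of ependymal and choroid plexus cells in the differences was not tested.

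**Figure D2:**
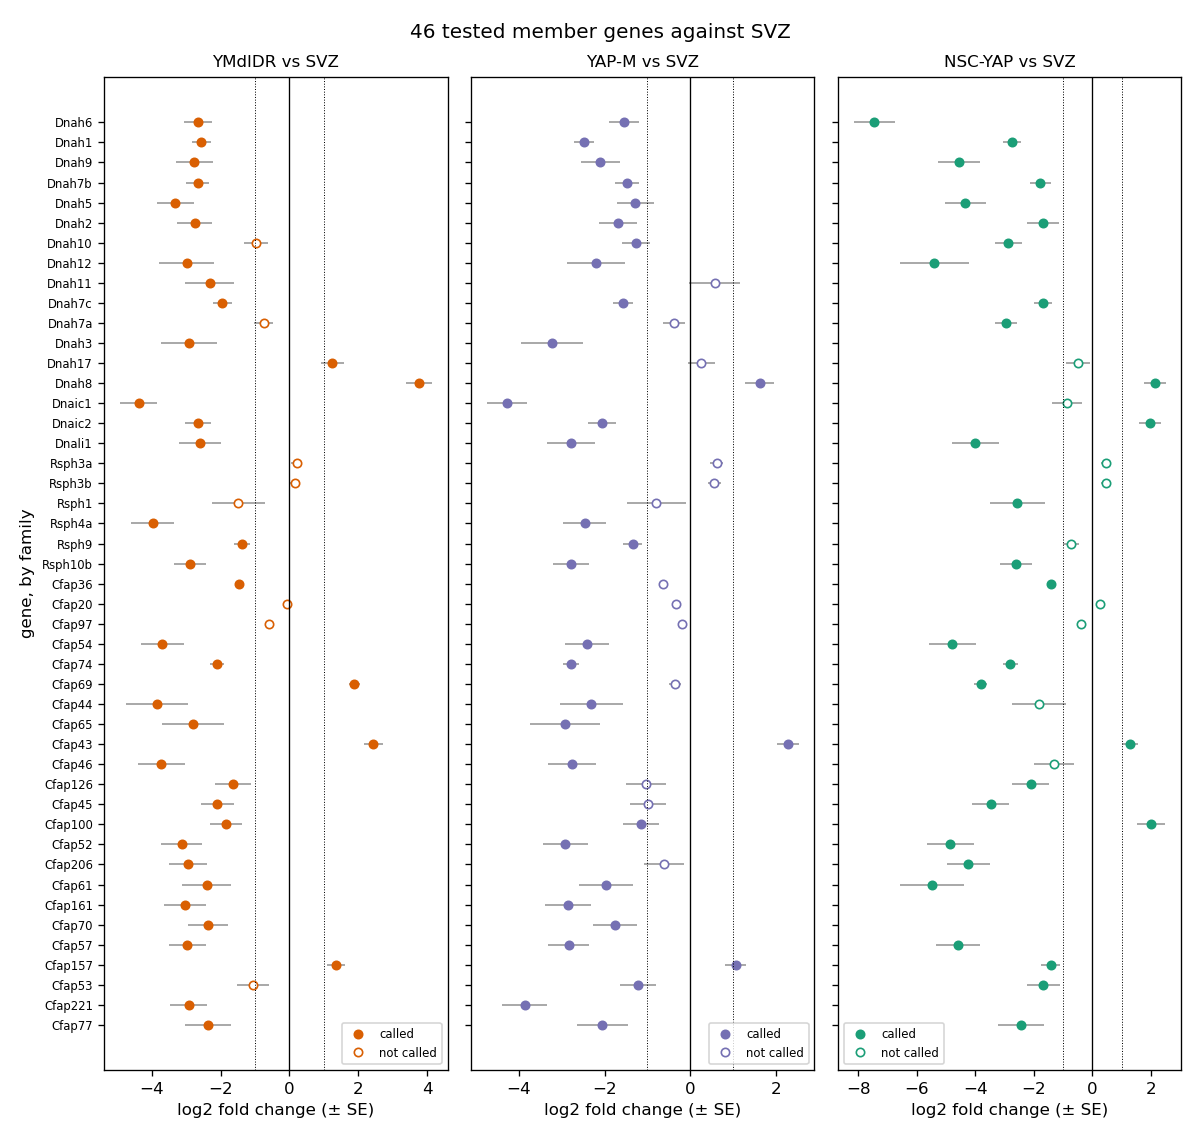
Log2 fold change against SVZ (horizontal axis, bars are 1 SE of the edgeR fit) of the 46 tested genes in YMdIDR, YAP-M and NSC-YAP, with filled points for called genes and dotted lines at a log2 fold change of 1 in size. In the NSC-YAP panel the 7 genes with 3 or fewer counts over the NSC-YAP libraries are not drawn. Most points lie left of 0 in each panel, with Dnah8 and Cfap43 to the right in all 3.

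The outer arm heavy chains of ependymal cilia, Dnah5 and Dnah9, were lower in each construct group than in SVZ. Dnah5 (chr15:28203752-28472045) stood at 1.28, 0.27 and 0.309 CPM in YMdIDR, at 3.2, 2.78, 2.68 and 1.71 CPM in YAP-M, at 0.163 and 0.449 CPM in NSC-YAP and at 4.74, 7.77 and 6.35 CPM in SVZ. No library of the construct groups reached the lowest SVZ library. Its log2 fold change against SVZ was -3.32 ± 0.54 in YMdIDR (SE, edgeR adjusted p = 0.000168), -1.28 ± 0.44 in YAP-M (adjusted p = 0.0197) and -4.34 ± 0.7 in NSC-YAP (adjusted p = 0.000211). The YAP-M call was lost without YAP-M replicate 3 (-1.18) or 4 (-1.01) and without SVZ replicate 2 (-1.04) or 3 (-1.22). Dnah9 (chr11:65831282-66168551) stood at 2.27, 0.946 and 0.442 CPM in YMdIDR, at 2.28, 0.815, 1.92 and 2.71 CPM in YAP-M, at 0.367 and 0.326 CPM in NSC-YAP and at 7.18, 10.1 and 7.67 CPM in SVZ. The SVZ libraries again lay above the rest, with log2 fold changes of -2.76 ± 0.53, -2.1 ± 0.46 and -4.56 ± 0.72 in YMdIDR, YAP-M and NSC-YAP (SE, edgeR adjusted p of 0.000565, 0.00142 and 0.000184).

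Dnah11, the motor of the arms near the base of the cilium, stood at 1.67, 0.18 and 0.177 CPM in YMdIDR, at 6.0, 5.34, 5.97 and 2.93 CPM in YAP-M, at 0.0407 and 0.0408 CPM in NSC-YAP and at 1.75, 5.08 and 3.37 CPM in SVZ. YAP-M and SVZ overlapped (log2 fold change 0.57 ± 0.6, edgeR adjusted p = 0.396), whereas YMdIDR lay below all libraries of both, although its first library came close to the lowest of SVZ. Its change of -2.31 ± 0.71 against SVZ (adjusted p = 0.0111) was not called when the other groups were left out of the fit (-2.25). NSC-YAP held 2 counts of Dnah11 over both libraries, which puts it 83.8-fold lower than SVZ, with a 95% interval from counting error of 22.9 to 696.

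Dnah8 and Dnah17, which are known chiefly as outer arm motors of the sperm tail, were high in YMdIDR. Dnah8 (chr17:30624354-30875264) stood at 19.4, 13.5 and 7.91 CPM in YMdIDR, at 4.08, 2.82, 2.26 and 3.08 CPM in YAP-M, at 4.76 and 3.96 CPM in NSC-YAP and at 1.15, 1.08 and 0.733 CPM in SVZ. All construct groups lay above SVZ, with log2 fold changes of 3.77 ± 0.37 in YMdIDR, 1.63 ± 0.34 in YAP-M and 2.13 ± 0.38 in NSC-YAP (SE, edgeR adjusted p of 2.94e-06, 0.00103 and 0.000469). Dnah17 averaged 2.54 ± 0.417 CPM in YMdIDR, 1.27 ± 0.411 CPM in YAP-M, 0.754 ± 0.0281 CPM in NSC-YAP and 1.07 ± 0.396 CPM in SVZ (SD), and rose against SVZ in YMdIDR (1.25 ± 0.34, edgeR adjusted p = 0.00535). It overlaps Pgs1 on the opposite strand, whose means were 111, 68.1, 21.8 and 42.6 CPM in YMdIDR, YAP-M, NSC-YAP and SVZ, and with the strand setting of the counting not given, reads of the pair cannot be told apart. A list of 10 male germ cell genes, of which 3 passed the minimum, summed to 1.58 to 3.22 CPM in YMdIDR. It summed to 4.27 to 18.0 CPM in YAP-M, 6.08 to 6.43 CPM in NSC-YAP and 9.62 to 11 CPM in SVZ. Ddx4 alone was 16.1 of the 18.0 CPM in YAP-M replicate 3, and Dazl averaged 5.73 CPM in SVZ. A link of this list to Dnah8 or Dnah17 was not tested.

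**Figure D3:**
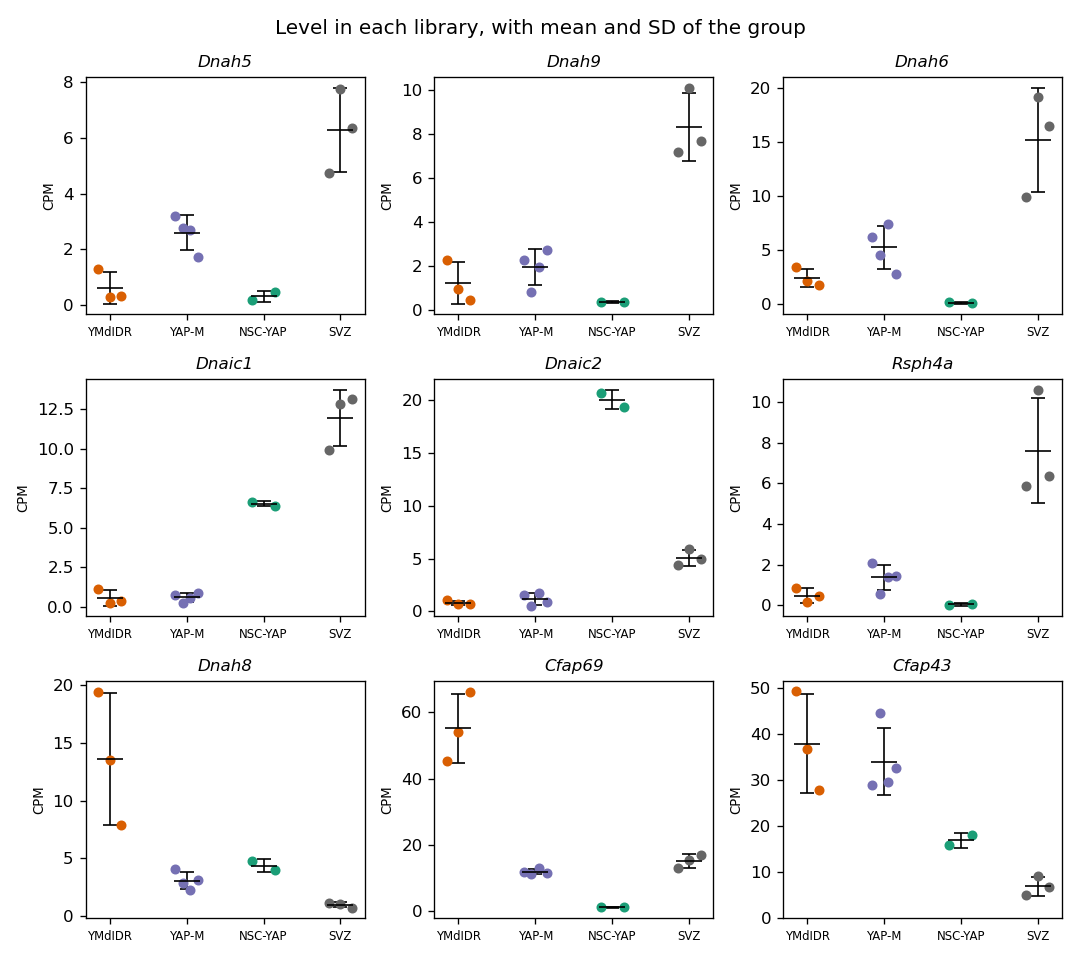
Level in CPM (vertical axis, linear, with its own range in each panel) of 9 genes in each library; points are libraries, bars the group mean and SD. Dnah5, Dnah9, Dnah6, Dnaic1 and Rsph4a are highest in SVZ, Dnaic2 is highest in NSC-YAP at 20.7 and 19.4 CPM, and Dnah8 and Cfap69 are highest in YMdIDR.

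Among the inner arm heavy chains, Dnah6 and Dnah1 had the highest SVZ levels per exon length, 1.15 and 1.0 CPM per kilobase. Dnah6 stood at 3.38, 2.12 and 1.77 CPM in YMdIDR, at 6.18, 4.56, 7.37 and 2.78 CPM in YAP-M, at 0.122 and 0.0408 CPM in NSC-YAP and at 9.85, 19.2 and 16.5 CPM in SVZ. Each group lay below SVZ, by a log2 fold change of -2.65 ± 0.4 in YMdIDR, -1.54 ± 0.35 in YAP-M and -7.45 ± 0.7 in NSC-YAP (SE, edgeR adjusted p of 0.000101, 0.00177 and 3.91e-06). Dnah6 overlaps Gm20560 on the opposite strand, at means of 4.41, 0.773, 0.0407 and 0.408 CPM in YMdIDR, YAP-M, NSC-YAP and SVZ. Dnah1 averaged 2.19 ± 0.779 CPM in YMdIDR, 2.31 ± 0.488 CPM in YAP-M, 1.92 ± 0.117 CPM in NSC-YAP and 12.9 ± 1.17 CPM in SVZ (SD). Its log2 fold changes against SVZ were -2.56 ± 0.27, -2.48 ± 0.24 and -2.75 ± 0.32 in YMdIDR, YAP-M and NSC-YAP (SE, edgeR adjusted p of 5.47e-06, 3.18e-06 and 1.85e-05). Dnah3, which passed the minimum only through SVZ, had no count in NSC-YAP and fell by 3.23 on the log2 scale in YAP-M. With a floor of 3 counts over the group, Dnah3 was at least 33.3-fold lower in NSC-YAP than in SVZ. Dnah2 and Dnah12 were called lower in all 3 comparisons. The Dnah2 call in NSC-YAP was lost with quantile normalization (-0.7), without either NSC-YAP library (-1.47 without replicate 1 and -1.89 without replicate 2) and without SVZ replicate 2 (-1.54), and the Dnah12 call in YAP-M was lost without SVZ replicate 2 (-1.84). Dnah10 was called lower in YAP-M and NSC-YAP. The copies Dnah7a, Dnah7b and Dnah7c on chromosome 1 can share reads, and their separate values are uncertain. Dnah7b averaged 1.05 CPM in YMdIDR, 2.41 CPM in YAP-M, 1.94 CPM in NSC-YAP and 6.67 CPM in SVZ, and Dnah7a averaged 1.81, 2.34, 0.387 and 3.04 CPM in the same groups.

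The intermediate chains, which anchor the outer arm to its cargo doublet, set NSC-YAP apart from YMdIDR and YAP-M. Dnaic1 (chr4:41569775-41638158) stood at 1.11, 0.225 and 0.353 CPM in YMdIDR, at 0.773, 0.222, 0.554 and 0.891 CPM in YAP-M, at 6.64 and 6.4 CPM in NSC-YAP and at 9.9, 12.8 and 13.1 CPM in SVZ. It fell against SVZ in YMdIDR (-4.38 ± 0.54, edgeR adjusted p = 1.8e-05) and YAP-M (-4.28 ± 0.47, adjusted p = 8.16e-06), and the change in NSC-YAP was not called. Dnaic2 (chr11:114727408-114757889) stood at 1.07, 0.676 and 0.662 CPM in YMdIDR, at 1.58, 0.556, 1.79 and 0.928 CPM in YAP-M, at 20.7 and 19.4 CPM in NSC-YAP and at 4.37, 5.89 and 4.94 CPM in SVZ. The 4 groups did not overlap, apart from YMdIDR and YAP-M. Dnaic2 fell against SVZ in YMdIDR (-2.65 ± 0.38, edgeR adjusted p = 6.49e-05) and YAP-M (-2.06 ± 0.33, adjusted p = 0.000149) and rose in NSC-YAP (1.98 ± 0.37, adjusted p = 0.000605). Dnaic1 shares 15 bases of its span with Enho on the opposite strand, whose means were 4.56, 3.19, 75.2 and 44.5 CPM in YMdIDR, YAP-M, NSC-YAP and SVZ, and the part of its reads in Dnaic1 was not tested. Dnaic2 overlaps no gene of 1 CPM or more.

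Dnali1, the light-intermediate chain of inner arms, stood at 1.67, 0.315 and 0.618 CPM in YMdIDR, at 0.957, 0.259, 0.937 and 0.928 CPM in YAP-M, at 0.163 and 0.489 CPM in NSC-YAP and at 3.78, 7.64 and 4.5 CPM in SVZ. The SVZ libraries did not overlap the others. Its log2 fold changes were -2.6 ± 0.62, -2.78 ± 0.56 and -4.0 ± 0.81 in YMdIDR, YAP-M and NSC-YAP (SE, edgeR adjusted p of 0.00234, 0.000753 and 0.00106).

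The radial spoke genes differed among themselves. Rsph4a, a protein of the spoke head, stood at 0.855, 0.135 and 0.442 CPM in YMdIDR, at 2.06, 0.556, 1.41 and 1.45 CPM in YAP-M, at 0.0 and 0.0816 CPM in NSC-YAP and at 5.89, 10.6 and 6.35 CPM in SVZ. It fell against SVZ in YMdIDR (-3.97 ± 0.62, edgeR adjusted p = 0.000124) and YAP-M (-2.47 ± 0.51, adjusted p = 0.000869), and with 2 counts over NSC-YAP it was 188-fold lower there than in SVZ (95% interval from counting error 51.7 to 1550). Rsph10b fell in all 3 groups, with log2 fold changes of -2.89 ± 0.47, -2.78 ± 0.42 and -2.61 ± 0.54 in YMdIDR, YAP-M and NSC-YAP (SE, edgeR adjusted p of 0.000163, 9.09e-05 and 0.00126). Rsph9, another head protein, was called lower in YMdIDR (-1.38 ± 0.24, edgeR adjusted p = 0.000277) and YAP-M (-1.34 ± 0.22, adjusted p = 0.000175); its opposite-strand partner Mrps18a averaged 44.5, 38.6, 38.6 and 37.1 CPM in YMdIDR, YAP-M, NSC-YAP and SVZ. Rsph1, also of the head, was called lower in NSC-YAP, but that call was lost with quantile normalization (-1.62), without NSC-YAP replicate 1 (-2.69) or 2 (-2.41) and without SVZ replicate 2 (-2.42) or 3 (-2.58). Its libraries spread widely in YMdIDR (7.95, 2.12 and 0.883 CPM) and YAP-M (8.87, 1.22, 9.8 and 3.9 CPM), against 8.84, 12 and 9.97 CPM in SVZ. The stalk genes Rsph3a and Rsph3b were called in none of the 3 comparisons, and averaged 26.4 and 25.1 CPM in YMdIDR, 34.7 and 33.0 CPM in YAP-M, 31.4 and 31.1 CPM in NSC-YAP and 22.6 and 22.4 CPM in SVZ.

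Of the 23 tested Cfap genes, 17 were called lower and 3 higher in YMdIDR than in SVZ, beside 29.6% and 26.9% of all genes. In YAP-M 14 were lower and 2 higher, beside 28.9% and 25.8%. In NSC-YAP 17 were lower and 2 higher, beside 27.6% and 17.5%. The 23 include Cfap52, Cfap57, Cfap70, Cfap77, Cfap161 and Cfap221, which passed the minimum only through SVZ and were called lower in each comparison. Genes of the central pair were among those lower. Cfap54 stood at 2.39, 0.946 and 0.309 CPM in YMdIDR, at 4.16, 1.19, 2.86 and 3.64 CPM in YAP-M, at 0.652 and 0.489 CPM in NSC-YAP and at 11.5, 20.3 and 15.5 CPM in SVZ. Its SVZ libraries lay above all others, and its log2 fold changes were -3.69 ± 0.62, -2.41 ± 0.52 and -4.78 ± 0.79 in YMdIDR, YAP-M and NSC-YAP (SE, edgeR adjusted p of 0.000203, 0.00118 and 0.000273). Cfap74, of the same projection, averaged 3.55 ± 0.552 CPM in YMdIDR, 2.21 ± 0.335 CPM in YAP-M, 2.2 ± 0.521 CPM in NSC-YAP and 15.3 ± 1.21 CPM in SVZ (SD). Cfap221, also of that projection, fell by 3.87 on the log2 scale in YAP-M, and Cfap46, of it too, fell by 3.72 in YMdIDR. Cfap65, needed for the sperm tail, and Cfap161, of the doublet wall, had no count in NSC-YAP and were at least 145-fold and at least 54.8-fold lower there than in SVZ, with a floor of 3 counts over the group. Cfap52, a protein inside the doublet wall, averaged 0.475, 0.556 and 0.143 CPM in YMdIDR, YAP-M and NSC-YAP, against 4.24 CPM in SVZ. The abundant Cfap20 and Cfap97 were not called against SVZ in any group, whereas Cfap36 fell in YMdIDR (-1.46 ± 0.11, edgeR adjusted p = 3.67e-07) and NSC-YAP (-1.43 ± 0.12, adjusted p = 2.13e-06).

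Some Cfap genes rose. Cfap43 (chr19:47737561-47919299), which tethers an inner arm motor and is needed for the sperm tail, stood at 49.2, 36.7 and 27.8 CPM in YMdIDR, at 28.9, 44.5, 29.6 and 32.7 CPM in YAP-M, at 15.8 and 18.1 CPM in NSC-YAP and at 5.06, 9.08 and 6.74 CPM in SVZ. All construct groups lay above SVZ, by log2 fold changes of 2.44 ± 0.27, 2.28 ± 0.26 and 1.29 ± 0.28 in YMdIDR, YAP-M and NSC-YAP (SE, edgeR adjusted p of 7.62e-06, 1e-05 and 0.00198). Its partner Cfap44 instead averaged 0.615, 1.82 and 2.53 CPM in those groups, against 8.96 CPM in SVZ, and fell by 3.84 on the log2 scale in YMdIDR. Cfap43 overlaps Gsto1 on the opposite strand, at mean levels of 110, 117, 36.1 and 46.2 CPM in YMdIDR, YAP-M, NSC-YAP and SVZ.

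Cfap69 (chr5:5579278-5664239), known from olfactory cilia and the sperm tail, stood at 45.4, 54.2 and 66.2 CPM in YMdIDR, at 11.7, 11.2, 12.9 and 11.5 CPM in YAP-M, at 0.977 and 1.14 CPM in NSC-YAP and at 12.8, 15.4 and 16.9 CPM in SVZ. YMdIDR lay above every other library and NSC-YAP below, with log2 fold changes against SVZ of 1.88 ± 0.16 in YMdIDR and -3.82 ± 0.22 in NSC-YAP (SE, edgeR adjusted p of 9.11e-07 and 1.21e-07). Cfap157, a protein of the sperm tail, rose in YMdIDR (1.35 ± 0.26, edgeR adjusted p = 0.000623) and in YAP-M (1.06 ± 0.25, adjusted p = 0.00232), although the YAP-M call was lost without SVZ replicate 1 (0.95). In NSC-YAP it was lower (-1.43 ± 0.33, edgeR adjusted p = 0.00247), except with quantile normalization, where the change was 0.02. Cfap100, known from green algae as part of a complex at the inner arms, stood at 17.9 and 17.0 CPM in NSC-YAP, against 3.64, 5.17 and 4.15 CPM in SVZ (log2 fold change 2.01 ± 0.47, edgeR adjusted p = 0.00274), and averaged 1.2 CPM in YMdIDR and 1.94 CPM in YAP-M. It shares 12 bases with Zxdc on the opposite strand, at 24.7, 27.3, 49.6 and 17.3 CPM in YMdIDR, YAP-M, NSC-YAP and SVZ.

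Set against NSC-YAP, both YMdIDR and YAP-M had more Dnah6 and Cfap69 and less Dnaic1, Dnaic2 and Cfap100. Of the 46 genes, 16 were higher and 4 lower in YMdIDR than in NSC-YAP, beside 27.4% and 20.4% of all genes tested, and 19 were higher and 3 lower in YAP-M, beside 28.9% and 21.6% of all genes. These splits depended on the scaling: with quantile normalization 5 were higher and 12 lower in YMdIDR, beside 20.2% and 25.4% of all genes, and 7 were higher and 11 lower in YAP-M, beside 21.0% and 27.5%. The median log2 fold change moved to -0.28 and -0.08, against 1.12 and 1.1 with TMM. Without YMdIDR replicate 1, 10 of the 46 were higher and 7 lower in YMdIDR, beside 26.8% and 21.8% of all genes then tested. The number higher was then not in excess of all genes. Without either NSC-YAP library fewer of the 46 were called higher in YMdIDR and in YAP-M, but NSC-YAP then had no replicate. With the adjusted p alone, 7 were lower in YMdIDR and 5 in YAP-M, beside 31.6% and 34.5% of all genes. The genes named next kept their direction and call with each scaling. Dnah6 was higher in YMdIDR (log2 fold change 4.81 ± 0.71, edgeR adjusted p = 0.000104) and in YAP-M (5.91 ± 0.68, adjusted p = 1.51e-05). Cfap69 was higher in YMdIDR (5.7 ± 0.23, edgeR adjusted p = 8.56e-09) and in YAP-M (3.47 ± 0.21, adjusted p = 1.12e-07). Dnaic2 was lower in YMdIDR (-4.63 ± 0.41, edgeR adjusted p = 2.24e-06) and in YAP-M (-4.04 ± 0.36, adjusted p = 1.84e-06), and so were Dnaic1 (-3.51 ± 0.55 and -3.41 ± 0.49) and Cfap100 (-3.85 ± 0.5 and -3.17 ± 0.44). Dnah11 was 123-fold higher in YAP-M than in NSC-YAP by counts, with a 95% interval from counting error of 34.0 to 1020.

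Between YMdIDR and YAP-M few of the genes were called: 2 were higher and 5 lower, beside 6.78% and 9.6% of all genes tested. With the adjusted p alone 4 were higher, beside 22.9% of all genes. Those higher in YMdIDR were Cfap69 (log2 fold change 2.23 ± 0.14, edgeR adjusted p = 1.29e-05) and Dnah8 (2.15 ± 0.3, adjusted p = 0.000324), and neither overlapped between the groups. Those lower were Dnah11 (-2.88 ± 0.69, edgeR adjusted p = 0.00662), Cfap206 (-2.33 ± 0.54, adjusted p = 0.00548), Dnah5 (-2.04 ± 0.51, adjusted p = 0.00847), Dnah7b (-1.2 ± 0.31, adjusted p = 0.00954) and Dnah6 (-1.11 ± 0.38, adjusted p = 0.034). The Dnah6 call was lost without YMdIDR replicate 2 (-1.05) or 3 (-0.92) and without YAP-M replicate 1 (-1.03) or 3 (-0.92). Without YMdIDR replicate 1, 17 genes were lower in place of 5, beside 14.0% of all genes then tested, and Dnah9, Rsph4a, Cfap54 and Cfap44 were among those added.

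That library stood apart for these genes. YMdIDR replicate 1 held the highest of the 3 YMdIDR levels for 38 of the 46 tested genes (82.6%), beside 42.1% of all genes tested, and its median log2 ratio to the mean of the other YMdIDR libraries was 1.27 over the 46 and 0.02 over all genes, with 0.1 CPM added. In YAP-M, replicate 2 held the lowest level for 27 of the 46 (58.7%), beside 23.1% of all genes, with a median log2 ratio of -0.62, and replicate 3 the highest for 22, beside 26.8%. In SVZ, replicate 1 was lowest for 36 of the 46, beside 36.2% of all genes, and replicate 2 highest for 33, beside 31.7%. The 10 choroid plexus markers summed to 841, 194 and 96.1 CPM in YMdIDR replicates 1, 2 and 3, to 489, 154, 190 and 356 CPM in YAP-M replicates 1 to 4, and to 1010, 2510 and 2330 CPM in SVZ replicates 1 to 3. Ttr, the leading choroid plexus gene, stood at 653, 60.7 and 7.02 CPM in YMdIDR, at 259, 1.74, 0.682 and 217 CPM in YAP-M and at 907, 2250 and 2110 CPM in SVZ. YMdIDR replicate 1, YAP-M replicate 2 and SVZ replicates 1 and 2 were also extremes of the choroid plexus sum in their groups. YAP-M replicate 3, highest for 22 of the 46, instead had the lowest Ttr of its group and a choroid plexus sum of 190 CPM. Sulf1 made up 119 of the 154 CPM in YAP-M replicate 2 and 125 of the 190 CPM in replicate 3. Sulf1 and Folr1 made up 40.2 and 44.6 of the 96.1 CPM in YMdIDR replicate 3. Both genes had higher means in YMdIDR and YAP-M than in SVZ, so the low sums rest largely on them. The ependymal list summed to 52.2, 24.6 and 30.8 CPM in YMdIDR, to 41.5, 30.9, 77.4 and 51.3 CPM in YAP-M and to 106, 125 and 106 CPM in SVZ. Tppp3 alone made up 48.5 of the 77.4 CPM in YAP-M replicate 3. Tppp3 and Foxj1 made up 26.8 and 13.6 of the 52.2 CPM in YMdIDR replicate 1. The part of ependymal and choroid plexus cells in the differences between libraries was not tested.

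**Figure D4:**
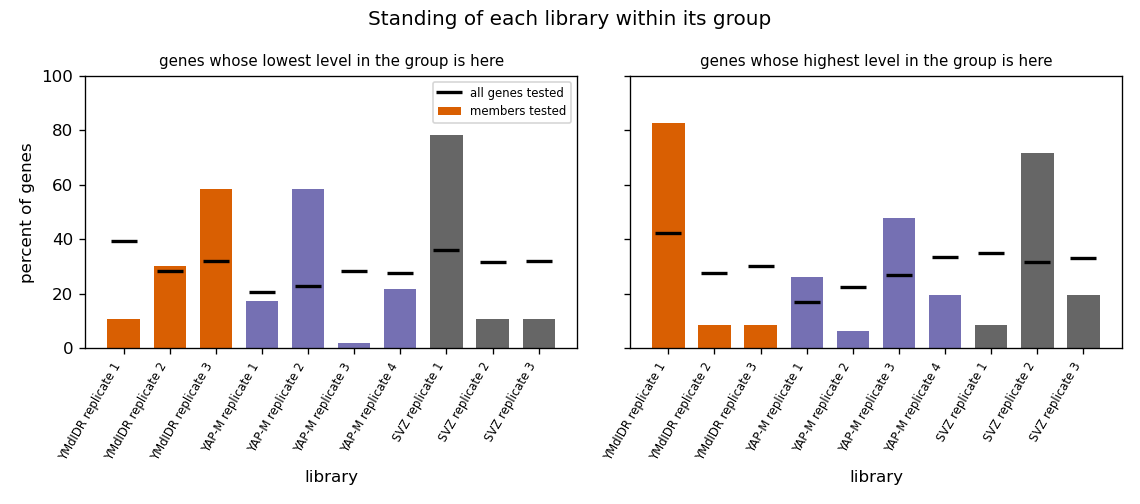
Percent of genes (vertical axis) whose lowest (left) or highest (right) level within the group lies in each library of YMdIDR, YAP-M and SVZ; bars are the 46 tested members and black marks all 18329 genes tested. YMdIDR replicate 1 is highest for 38 of the 46 and YAP-M replicate 2 lowest for 27 of them.

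Other axonemal genes, from lists of known components, were also read against SVZ. Of all genes, 29.6%, 28.9% and 27.6% were called lower in YMdIDR, YAP-M and NSC-YAP, and 26.9%, 25.8% and 17.5% higher. Of 6 tested central pair genes, 5 were lower in YMdIDR, 6 in YAP-M and 3 in NSC-YAP; 1 was higher, in NSC-YAP. In YAP-M they included Hydin (-3.01 ± 0.51, edgeR adjusted p = 0.00022) and Spef1 (-3.25 ± 0.24, adjusted p = 3.88e-07). Of 9 genes of the nexin link and its ruler, which hold neighbouring doublets together and space the arms, 7 were lower in YMdIDR, 6 in YAP-M and 7 in NSC-YAP, with none higher. Of 5 genes that dock the outer arm, 3, 3 and 4 were lower in YMdIDR, YAP-M and NSC-YAP, and 1, 1 and 0 higher. Of 13 tektins and other doublet inner proteins, 8, 7 and 8 were lower in the same groups and 0, 0 and 1 higher. Of 10 cytoplasmic factors that assemble dyneins before they enter the cilium, 4, 4 and 3 were lower and 4, 3 and 2 higher. With so few genes these numbers are not far from the shares of all genes, and nothing is read from them. In YAP-M, Spag1 (-1.98 ± 0.15, edgeR adjusted p = 5.42e-07) and Lrrc6 (-2.89 ± 0.38, adjusted p = 3.46e-05) fell and Dnaaf5 (1.78 ± 0.14, adjusted p = 6.09e-07) and Ruvbl2 (1.31 ± 0.12, adjusted p = 1.88e-06) rose. Among 30 genes of intraflagellar transport and the primary cilium, 16, 12 and 7 were lower and 2, 2 and 2 higher in YMdIDR, YAP-M and NSC-YAP. Among 9 genes of the cytoplasmic dyneins, which carry cargo in all cells, 3, 3 and 2 were lower and none higher. The shares lower among the cytoplasmic dyneins in each group, and among the intraflagellar transport genes in NSC-YAP, were near or under those of all genes, and nothing is read from them.

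Among listed regulators of motile cilia formation, Rfx3 and Rfx4 were lower in YMdIDR and YAP-M than in SVZ and E2f4 was higher, whereas Rfx4 was higher in NSC-YAP. Of 11 tested regulators, 5, 5 and 2 were lower and 2, 1 and 2 higher in YMdIDR, YAP-M and NSC-YAP than in SVZ. Beside them, 29.6%, 28.9% and 27.6% of all genes were lower and 26.9%, 25.8% and 17.5% higher. The numbers higher, and the number lower in NSC-YAP, were near or under these shares, and nothing is read from those numbers. E2f4 averaged 113, 83.2, 37.2 and 23.6 CPM in YMdIDR, YAP-M, NSC-YAP and SVZ. It rose against SVZ in YMdIDR (2.26 ± 0.13, edgeR adjusted p = 7.3e-08) and YAP-M (1.82 ± 0.13, adjusted p = 2.69e-07). Rfx3 averaged 8.07 CPM in YMdIDR, 6.07 CPM in YAP-M, 61.6 CPM in NSC-YAP and 50.5 CPM in SVZ, and fell by 2.65 and 3.06 on the log2 scale in YMdIDR and YAP-M (edgeR adjusted p of 1.71e-07 and 4.54e-08). Rfx4 averaged 2.21 CPM in YMdIDR, 6.91 CPM in YAP-M, 89.4 CPM in NSC-YAP and 26.2 CPM in SVZ, and rose by 1.77 ± 0.29 in NSC-YAP (edgeR adjusted p = 0.000226). Foxj1, named after its values were seen, stood at 13.6, 4.28 and 4.77 CPM in YMdIDR, at 11.1, 8.19, 13.6 and 18.3 CPM in YAP-M, at 37.3 and 37.6 CPM in NSC-YAP and at 20.2, 26.7 and 20.8 CPM in SVZ. It was lower than SVZ in YMdIDR (-1.58 ± 0.41, edgeR adjusted p = 0.0043). The change of -0.82 ± 0.37 in YAP-M was not called (edgeR adjusted p = 0.0622). In NSC-YAP all libraries lay above those of SVZ, while the change of 0.73 ± 0.44 was not called (edgeR adjusted p = 0.162). Trp73, an activator upstream of Foxj1, fell in YMdIDR (-3.48 ± 0.64, edgeR adjusted p = 0.000421), in YAP-M (-3.71 ± 0.58, adjusted p = 0.00012) and in NSC-YAP (-5.32 ± 0.9, adjusted p = 0.000318).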

How the data were processed

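The authors deposited 1 table per library with whole-number read counts per gene, not normalized; the submitters' processing notes name TopHat2 and mm10. The sources used here do not give the counting program, its strand setting or the annotation. Each table also gives the exon length of a gene (not a measurement of the library), used for CPM per kilobase. Groups were taken from the sample titles.

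Counts were summed per symbol and turned into CPM with TMM factors. Genes that reached 1 CPM in 2 or more libraries (18329) entered edgeR's quasi-likelihood test (version 4.0.16, R 4.3.3), 1 fit of all 12 libraries and 6 comparisons, with Benjamini-Hochberg adjustment. The test was tried on simulated data. Total counts set the precision. Intervals and floors hold for counting error alone: PCR copies are not separate molecules. No replicate pair agreed within sampling noise. Values after ± are SE for fold changes and SD over libraries for levels.

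The members and gene lists were chosen with earlier results of these data known. Every tested Dnah, Dnaic, Dnali1 and Rsph gene could be named, Cfap genes by the 8 largest called changes in each direction of a comparison or the 5 highest means, and other genes by up to 4 of smallest adjusted p per list. Other settings tried were no minimum, 5 CPM, median-ratio scaling, quantile normalization with limma 3.58.1, DESeq2 1.42.0, the compared groups alone, the replicate number as a block, the adjusted p alone, and each library left out in turn. Plots: matplotlib 3.10.9. Some results on overlapping genes are not reported here.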

Additional observations from a re-analysis of the deposited data

Results flagged for a closer look

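In YAP-M, the one group of 4 libraries, 2 of the 46 tested genes had a library far from the other 3. Dnali1 stood at 0.259 CPM in YAP-M replicate 2, against 0.928 to 0.957 CPM in the other YAP-M libraries. Cfap70 stood at 1.83 CPM in YAP-M replicate 3, against 0.333 to 0.515 CPM in the others. Chance alone gives about 1 such library in 20 genes.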

How the results depend on the processing

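Of 168 counts of called members under other settings, 148 stayed within 1.5 times the reported count. With a minimum of 5 CPM (27 members tested) the numbers lower than SVZ were 18 in YMdIDR (33 reported), 15 in YAP-M (30) and 15 in NSC-YAP (33), and those higher than NSC-YAP were 9 in YMdIDR (16) and 10 in YAP-M (19). Of all genes then tested, 27%, 26% and 25% were lower than SVZ in YMdIDR, YAP-M and NSC-YAP. The shares higher than NSC-YAP were 25.8% in YMdIDR and 26.6% in YAP-M. With quantile normalization the numbers higher and lower than NSC-YAP were 5 and 12 in YMdIDR (16 and 4 reported) and 7 and 11 in YAP-M (19 and 3); the cause was not tested. It moved the median of all genes by -0.26 (YMdIDR against NSC-YAP), -0.28 (YAP-M against NSC-YAP), 0.35 (NSC-YAP against SVZ) and 0.11 (YMdIDR against SVZ), and Cfap157 turned to 0.02 in NSC-YAP against SVZ. With DESeq2, 8 members were lower in YMdIDR than in YAP-M (5 reported). With the adjusted p alone, 4 were higher in YMdIDR than in YAP-M (2 reported), 7 lower in YMdIDR than in NSC-YAP (4), 5 lower in YAP-M than in NSC-YAP (3) and 5 higher in YAP-M than in SVZ (3).

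Leaving out 1 library gave 4 to 17 lower and 2 to 3 higher in YMdIDR against YAP-M, 9 to 19 higher and 3 to 7 lower in YMdIDR against NSC-YAP, 12 to 22 higher in YAP-M against NSC-YAP, 2 to 3 higher and 24 to 30 lower in YAP-M against SVZ, 32 to 35 lower in YMdIDR against SVZ and 28 to 32 lower in NSC-YAP against SVZ. Where NSC-YAP was left with 1 library, that library is assumed to vary like the other groups.

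A check of whether shared replicate numbers pair the libraries was mixed. Deviations of same-numbered YMdIDR and YAP-M libraries correlated at 0.00106, 0.386 and 0.124 over 18329 genes. In that comparison 2 of the 3 shared numbers correlated best with themselves in each direction, against 0 of 3 for YAP-M and SVZ. With the replicate number as a block, higher and lower counts were 2 and 5 (YMdIDR against YAP-M), 14 and 4 (YMdIDR against NSC-YAP), 5 and 34 (YMdIDR against SVZ), 18 and 4 (YAP-M against NSC-YAP), 3 and 28 (YAP-M against SVZ) and 4 and 33 (NSC-YAP against SVZ). The block lost the call of Dnah5 in YAP-M against SVZ (-1.14).

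Members under 1 CPM rest on few counts, and NSC-YAP on 2 libraries.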
